A study of Mus musculus with 4 samples.

Results

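The genes described here are 36 type I interferon response genes, a set of well-known interferon-induced effectors, sensors and transcription factors, measured in fetal-liver LSK cells with and without *Ddb1*. The members were chosen by name, and each was represented by whichever probe set, among those carrying only its name, was brightest over the arrays. By this rule 34 of the 36 were measured, among 20656 genes tested in all, while *Isg15* and *Usp18* were represented only by probe sets shared with another locus. LSK cells are the Lin-ckit+Sca1+ fraction, which holds the hematopoietic stem cells and the early multipotent progenitors. They were sorted by FACS from fetal livers of E16.5 embryos, and RNA of 4 samples was hybridized to 1 Affymetrix mouse array each. The control group (n = 2 arrays) carried DDB1 flox/flox without VavCre, and the *Ddb1*-deficient group (n = 2 arrays) carried DDB1 flox/flox with VavCre, both on a mixed C57BL/6x129 background. Both groups therefore share the floxed alleles, and only the second group expresses Cre, which the *Vav1* promoter drives throughout the hematopoietic compartment, so that *Ddb1* is lost in all blood lineages and not only in LSK cells. DDB1 is the adaptor subunit of the CUL4 ubiquitin ligases, and the arrays address which transcripts differ in the stem and progenitor fraction when it is missing. The sources do not say whether single embryos or pools of embryos were used, so that all p-values reflect the spread of these samples alone, part of which may be technical.

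Type I interferons are cytokines released by cells that sense foreign or misplaced nucleic acid. They bind a receptor made of IFNAR1 and IFNAR2, and the kinases JAK1 and TYK2 then phosphorylate STAT proteins, among them STAT2, which join IRF9 in the complex ISGF3 and switch on genes that carry an interferon-stimulated response element. The products degrade or trap viral RNA, slow translation, sense nucleic acid or amplify the response, and in hematopoietic stem cells the same pathway is known for driving quiescent cells into division.

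The promoter stretches of 4 members in which this element was found are shown. They come from the RefSeq promoter table of GRCm38.p6, 5′ to 3′ on the strand of the gene, with the letters of the element in capitals. Of the 26 members with a window, 16 did not hold these letters. The search was for GAAA followed by any 2 bases and GAAA again, or for TTTC, any 2 bases and TTTC, which reads the other strand, in windows from 250 bases before to 50 after each start site, and overlapping matches were allowed. *Rsad2*, *Ifit3* and *Stat2* were selected because both of their *Ddb1*-deficient arrays were above both controls with the smallest p-values among members with a match. *Ifit1* was selected because it lies near *Ifit3* on the same chromosome and holds the same pair of elements.
*Rsad2*: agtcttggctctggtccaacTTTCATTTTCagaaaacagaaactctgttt
*Ifit3*: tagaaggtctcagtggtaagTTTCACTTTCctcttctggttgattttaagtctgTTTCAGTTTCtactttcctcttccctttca
*Ifit1*: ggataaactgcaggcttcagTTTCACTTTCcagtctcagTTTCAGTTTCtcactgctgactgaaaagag
*Stat2*: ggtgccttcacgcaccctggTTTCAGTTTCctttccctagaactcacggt
The *Rsad2* stretch lies at chr12:26456543-26456592 on the minus strand, with its match 120 bases before the start site. The *Ifit3* stretch lies at chr19:34583353-34583436 and the *Ifit1* stretch at chr19:34640765-34640833, both on the plus strand, with matches 156 and 122 bases before the start of *Ifit3* and 104 and 85 bases before that of *Ifit1*. The start site that the promoter table uses for *Ifit3* lies inside the annotated span of the gene given below, so that this stretch is inside that span too. The *Stat2* stretch lies at chr10:128270256-128270305 on the plus strand, with its match 222 bases before the start.

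Windows were found for 26 of the measured members, and 10 of these (38.5%) held the letters, against 3.99% of the 27025 genes with a window. The 10 were *Rsad2*, *Ifit3*, *Ifit1*, *Ifih1*, *Stat2*, *Bst2*, *Eif2ak2*, *Ddx58*, *Oas3* and *Trim30*. A second motif, the gamma-activated sequence TTCNNNGAA, which is the same on both strands and is known from the response to interferon gamma, was found in 6 members (23.1%) and in 9.55% of all genes. The median log2 difference between the groups was 0.62 over the 10 members with the interferon element and 0.08 over the 16 without. This split was not tested. These matches describe letters in a window and are not evidence of binding.

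All levels below are log2 of the RMA intensity, a background-corrected and normalized array signal, and each difference is the *Ddb1*-deficient mean minus the control mean on that scale. The median of all probe sets was log2 2.06, and genes near or below it are dim. The targeted gene was at 6.06 and 6.26 in controls and at 4.58 and 4.33 in *Ddb1*-deficient LSKs (difference -1.70, adjusted p = 0.162 by limma), so that the arrays matched their labels. *Kit*, of the sort gate, was at 6.18 and 6.40 in controls and 6.41 and 5.63 in *Ddb1*-deficient LSKs. *Ly6a*, which encodes Sca-1 and is itself inducible by interferon, was at 7.30 and 6.32 and at 7.01 and 6.84. *Xist* was at 1.93 and 2.15 on the first array of each group and at 10.09 and 9.96 on the second, whereas the Y-linked *Kdm5d* was at 7.40 and 6.86 on the first and at 1.43 and 1.67 on the second. Each group thus has 1 male and 1 female array, and array number and sex cannot be told apart.

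The differences of the interferon response genes ran in both directions. No member was called at an adjusted p under 0.05 by limma, as no gene on the array was (0% of 20656 genes). The smallest adjusted p of a member was 0.157 (*Rsad2*), against 0.133 over all genes. At an unadjusted p under 0.05, 4 of the 34 members (11.8%) were higher in *Ddb1*-deficient LSKs, namely *Rsad2*, *Ifit3*, *Stat2* and *Ifit2*, where 4.9% of all genes were higher, and no member was lower, where 6.03% of all genes were. By the unpaired test of the study's methods 3 members, all of them among the 4, were higher and none lower at the same unadjusted threshold, against 4.45% and 3.73% of all genes, and its adjusted values called 2 genes (0.00968%), neither a member. Both *Ddb1*-deficient arrays lay above both controls for 10 members (29.4%), against 22.5% of all genes, and below both for 3 members (8.82%), against 18.5% of all genes, while the groups overlapped for the other 21. The median difference of the members was 0.16, with quartiles of -0.15 and 0.86, and that of all genes was 0.03, with quartiles of -0.24 and 0.26. The differences of the members ran from -2.78 (*Ifi35*) to 2.34 (*Rsad2*), with 22 positive and 12 negative, and 20 were smaller than log2 0.5 in either direction. An exact permutation test of 2 against 2 arrays cannot give a p below 0.333, so that no single gene can be tested by permutation. With 1 array left out, the median difference of the members ran from -0.02 to 0.51.

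**Figure D1:**
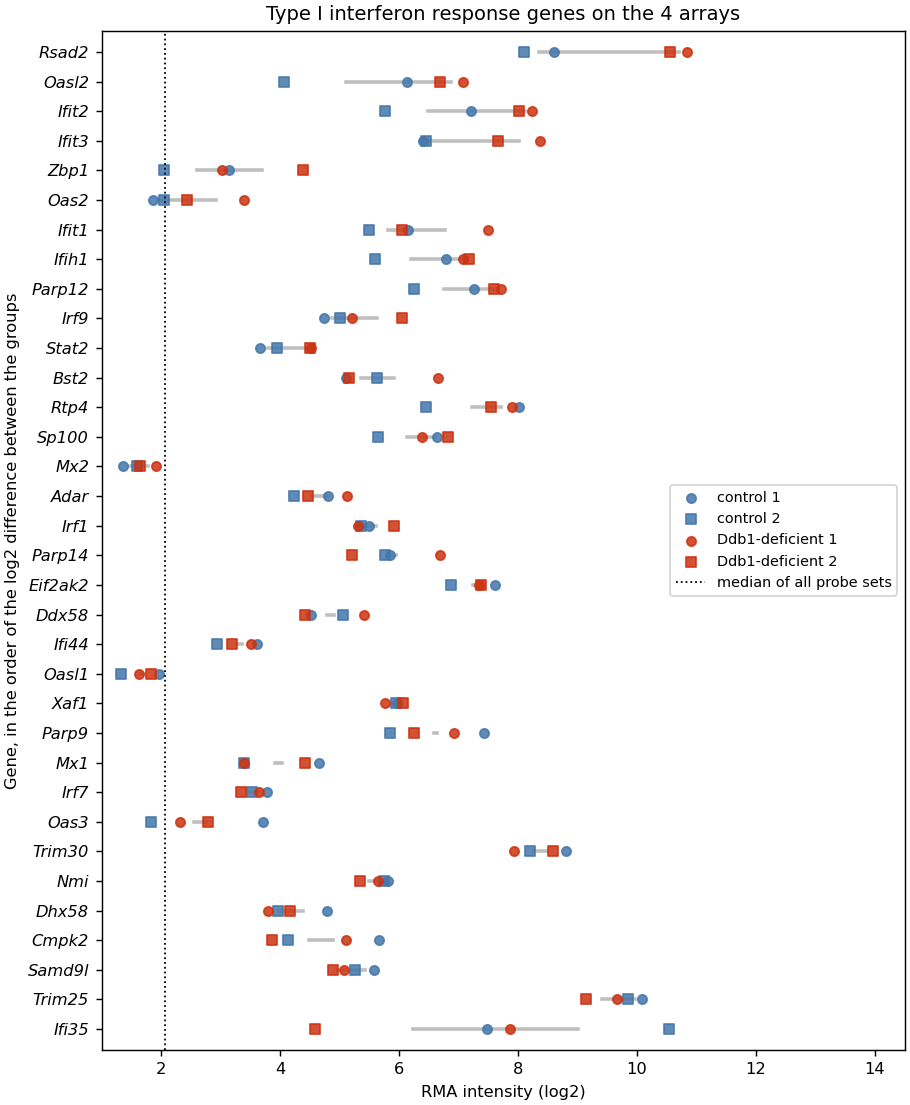
Level of each measured interferon response gene on the 4 arrays, with RMA intensity (log2) on the x axis and the genes in the order of their difference between the groups. Circles are array 1 and squares array 2 of each group, grey bars join the group means, and the dotted line is the median of all probe sets at 2.06. *Rsad2* shows a gap between the groups of 2.34, whereas for 21 genes the control and *Ddb1*-deficient arrays overlap.

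Beside these counts, markers of other cell types differed between the groups. Of 19 measured macrophage markers, 17 were higher at the unadjusted threshold and 18 had both *Ddb1*-deficient arrays above both controls (median difference 2.57). Their summed linear intensity was 4559 and 6796 in controls and 21297 and 25840 in *Ddb1*-deficient LSKs. *C1qa*, a complement subunit made by macrophages, was at 2.72 and 3.28 against 6.97 and 7.34. At the same threshold 7 of 10 endothelial markers were higher (median 1.39, summed intensity 78 and 114 against 238 and 233). The 7 measured markers of neutrophil and monocyte progenitors were all lower (median -3.92, summed 11052 and 13775 against 824 and 454). For plasmacytoid dendritic cells, the cells known for producing the most type I interferon, 1 of 8 markers was higher and 3 were lower (median -0.94, summed 1549 and 1063 against 293 and 480). Most of this sum on each array came from *Runx2* (9.79 and 8.81 against 5.33 and 7.32) and *Tcf4* (9.16 and 9.15 against 7.75 and 8.17). The sum thus says little about the dimmer markers. The defining marker *Siglech* was at 5.20 and 2.97 against 2.85 and 2.92. The 6 measured B lineage markers summed to 4041 and 6008 in controls, 3738 on *Ddb1*-deficient array 1 and 252 on array 2. Some markers were below the median probe set in 1 of the groups, such as *Ctsg* in *Ddb1*-deficient LSKs (1.33 and 1.13) and *Tie1* in controls (1.71 and 1.52). No marker passed the adjusted threshold. The 34 interferon response genes summed to 4009 and 4093 against 5655 and 4506. A few bright genes weigh heavily in this sum. *Rsad2* (8.61 and 8.10 against 10.84 and 10.55) made up a large part of it on the *Ddb1*-deficient arrays. On control array 2 a large part was *Ifi35* (10.54), whose probe sets disagree. This sum therefore gives no common rise of the members. In sorted bulk cells a change in the number of cells of a type and a change in RNA per cell cannot be told apart, and the part of these cell types in the members' differences was not tested.

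Among the antiviral effectors, *Rsad2* stood apart. It encodes viperin, a radical SAM enzyme that makes a chain-terminating nucleotide against viral polymerases. Its level was 8.61 and 8.10 in controls and 10.84 and 10.55 in *Ddb1*-deficient LSKs. The lowest *Ddb1*-deficient array was well above the highest control, and the gap between the groups exceeded the spread within either. The means were 8.35 ± 0.36 and 10.70 ± 0.20 (SD, n = 2), a difference of 2.34 ± 0.27 (SE) with a 95% interval from 1.60 to 3.09, which is 5.07-fold (limma, adjusted p = 0.157). Both of its other probe sets gave the same picture at lower levels, with 3.97 and 3.57 against 6.41 and 6.54 (difference 2.71) and with 6.35 and 5.44 against 8.47 and 8.15 (difference 2.41). *Rsad2* was under the unadjusted threshold in each of the 14 alternatives run with that test, and its difference stayed between 2.09 and 2.60 when 1 array was left out.

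The IFIT proteins, which bind viral RNA and block its translation, gave 3 positive differences. *Ifit3* was at 6.40 and 6.45 in controls and at 8.37 and 7.67 in *Ddb1*-deficient LSKs. The controls were nearly equal and both *Ddb1*-deficient arrays were higher (difference 1.59 ± 0.30, SE, 3.02-fold, adjusted p = 0.241). *Ifit2* was at 7.21 and 5.77 in controls and at 8.23 and 8.01 in *Ddb1*-deficient LSKs. Here the *Ddb1*-deficient arrays were close to each other while the controls were apart, with control array 1 nearer to them (difference 1.63 ± 0.54, SE, 3.1-fold, adjusted p = 0.437). Without control array 2 the *Ifit2* difference was 0.91, and without control array 1 it was 2.35. *Ifit1* was at 6.15 and 5.49 against 7.50 and 6.05. Its groups overlapped, since *Ddb1*-deficient array 2 lay just under control array 1 (difference 0.96, adjusted p = 0.659).

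The oligoadenylate synthetases, which sense double-stranded RNA and make a messenger that leads to the decay of RNA, were divided. *Oasl2*, a family member that is an active enzyme in mouse, was at 6.14 and 4.06 in controls and at 7.07 and 6.68 in *Ddb1*-deficient LSKs. Both *Ddb1*-deficient arrays were higher, but the controls differed from each other by more than the groups did (difference 1.78 ± 0.77, SE, adjusted p = 0.538). Leaving out control array 2 gave 0.74, and leaving out control array 1 gave 2.82. *Oas2* was dim, at 1.86 and 2.05 against 3.40 and 2.44. Only *Ddb1*-deficient array 1 was clearly above the level of the median probe set (difference 0.97 ± 0.39, SE, adjusted p = 0.504), and the difference was 0.49 without that array and 1.45 without *Ddb1*-deficient array 2. *Oas3* was at 3.71 and 1.82 in controls and at 2.31 and 2.79 in *Ddb1*-deficient LSKs, so that the controls enclosed the other group (difference -0.21, adjusted p = 0.956). *Oasl1* was below the median probe set in both groups (difference 0.07).

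The other effectors lay closer to 0. The dynamin-like GTPase *Mx1* was at 4.66 and 3.39 against 3.39 and 4.42, with 1 low and 1 high array in each group (difference -0.12). *Mx2* was below the median probe set on all arrays, with both *Ddb1*-deficient arrays just above both controls (difference 0.31). *Bst2*, the tetherin that holds budding virions on the cell surface, differed by 0.54 with overlapping groups, and its only probe set has a deposited alignment on another chromosome than the gene. *Eif2ak2*, the kinase PKR that stops translation, was at 7.61 and 6.87 against 7.35 and 7.38 (difference 0.13). *Adar*, the RNA-editing enzyme that masks self RNA, differed by 0.27. *Cmpk2*, a mitochondrial nucleotide kinase, was at 5.66 and 4.13 against 5.10 and 3.87, with array 1 the higher in each group (difference -0.40, and 0.41 by its other probe set). *Rtp4*, a receptor transporter protein, was at 8.01 and 6.45 against 7.90 and 7.54 (difference 0.49), and *Sp100*, a component of PML nuclear bodies, differed by 0.47. *Ifi44* and *Xaf1*, an XIAP-associated factor that favours apoptosis, differed by 0.08 and -0.05. *Samd9l*, an antiviral protein that also restrains hematopoietic growth, was at 5.58 and 5.25 against 5.07 and 4.89. It was 1 of the 3 members with both *Ddb1*-deficient arrays below both controls (difference -0.44 ± 0.22, SE, adjusted p = 0.59).

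Of the sensors of nucleic acid among the members, *Ifih1*, the receptor MDA5 for long double-stranded RNA, was at 6.79 and 5.60 in controls and at 7.07 and 7.18 in *Ddb1*-deficient LSKs. The *Ddb1*-deficient arrays were nearly equal and above both controls, of which array 2 was the lower (difference 0.93 ± 0.45, SE, adjusted p = 0.588). Leaving out control array 2 gave a difference of 0.34, and leaving out control array 1 gave 1.52. *Ddx58*, which encodes RIG-I, was at 4.52 and 5.05 against 5.41 and 4.41, with overlapping groups (difference 0.13). *Dhx58*, which encodes LGP2, a regulator of the other helicases, differed by -0.40 with overlapping groups. Its other probe sets were lower without overlap. They were at 3.14 and 3.56 against 1.93 and 3.05 (difference -0.86) and, dimmer, at 1.38 and 1.36 against 1.18 and 1.13 (difference -0.21). *Zbp1*, a sensor of Z-form nucleic acid that triggers cell death, was at 3.14 and 2.05 against 3.02 and 4.39. Only *Ddb1*-deficient array 2 was above both controls (difference 1.11, adjusted p = 0.642), and its other probe set differed by -0.22.

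The transcription factors that carry the signal were not uniform either. *Stat2*, the ISGF3 subunit that is specific to type I and type III interferon signaling, was at 3.66 and 3.95 in controls and at 4.51 and 4.50 in *Ddb1*-deficient LSKs. Both *Ddb1*-deficient arrays were equally high and did not overlap the controls (difference 0.70 ± 0.20, SE, 1.63-fold, adjusted p = 0.37), and a second, dimmer probe set differed by 0.56, also without overlap. *Irf9*, the DNA-binding subunit of ISGF3, was at 4.74 and 5.01 against 5.20 and 6.05. The groups did not overlap, although *Ddb1*-deficient array 1 was close to control array 2 (difference 0.76 ± 0.36, SE, adjusted p = 0.578). Leaving out the higher *Ddb1*-deficient array gave an *Irf9* difference of 0.33, and leaving out the lower gave 1.18. *Irf7*, which amplifies interferon production and is among the most inducible genes of the pathway, was at 3.77 and 3.53 against 3.65 and 3.34. These 4 values overlapped within a narrow range (difference -0.16, 95% interval from -0.77 to 0.45). *Irf1* was at 5.49 and 5.36 against 5.31 and 5.91, with only the last array higher (difference 0.18, and -0.12 without *Ddb1*-deficient array 2).

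Among the ADP-ribosyltransferases, of which PARP12 restricts RNA viruses, *Parp12* was at 7.26 and 6.25 in controls and at 7.71 and 7.60 in *Ddb1*-deficient LSKs. Both *Ddb1*-deficient arrays were above both controls, with control array 2 again the low one (difference 0.90 ± 0.40, SE, adjusted p = 0.548, and 0.39 without that array). *Parp9* was at 7.42 and 5.85 against 6.92 and 6.25. Array 1 was the higher in each group and the means were nearly the same (difference -0.06, which became 0.04 after repeated quantile normalization). *Parp14* was at 5.85 and 5.77 against 6.68 and 5.21 (difference 0.14), whereas its dimmer probe set was at 3.17 and 3.86 against 5.80 and 4.71, without overlap (difference 1.74).

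The remaining members regulate the response. *Trim25*, the ubiquitin ligase that activates RIG-I, was the brightest of the members with lower *Ddb1*-deficient arrays, at 10.08 and 9.85 against 9.67 and 9.15 (difference -0.55 ± 0.26, SE, adjusted p = 0.578). The deposited alignment of this probe set is on chromosome 13 and not on chromosome 11, where the gene lies. Of the probe sets that align to chromosome 11, 1 was lower without overlap, at 8.01 and 8.08 against 7.54 and 7.42 (difference -0.56), and 1 was higher without overlap, at 7.31 and 7.15 against 7.99 and 7.74 (difference 0.63), so that no direction can be given for the gene. *Nmi*, which dimerizes with IFI35, was at 5.82 and 5.75 against 5.65 and 5.35. Both *Ddb1*-deficient arrays were lower by a small margin (difference -0.28 ± 0.20, SE, adjusted p = 0.707). *Trim30*, a member of the TRIM family of ubiquitin ligases, was at 8.80 and 8.20 against 7.93 and 8.59 (difference -0.23). Its other probe set was lower, narrowly without overlap, at 7.60 and 7.13 against 7.12 and 6.70 (difference -0.46).

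*Ifi35* had the largest difference of any member in size, and also the largest standard error. Its brightest probe set was at 7.47 and 10.54 in controls and at 7.86 and 4.59 in *Ddb1*-deficient LSKs. Array 1 was nearly the same in both groups, and array 2 was the highest in controls and the lowest in *Ddb1*-deficient LSKs (difference -2.78 ± 1.60, SE, 95% interval from -7.25 to 1.70, adjusted p = 0.641). On the same *Ddb1*-deficient array the summed intensity of the B lineage markers was 252, against 3738 to 6008 on the other arrays, and their part in this value was not tested. A second *Ifi35* probe set was at 3.91 and 3.78 against 5.01 and 5.32, with both *Ddb1*-deficient arrays higher (difference 1.32), and the third differed by 0.48.

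Probe sets of 1 gene thus disagreed for part of the members. The 34 genes were covered by 56 probe sets, with 19 genes on a single one. Among the 15 genes with several, all probe sets of 7 pointed the same way, namely *Rsad2*, *Stat2*, *Adar*, *Ddx58*, *Parp14*, *Trim30* and *Dhx58*. For the other 8 the probe sets pointed both ways. *Eif2ak2* gave 0.13 and 0.42 by its brighter probe sets and -1.66 by the dimmest, at 4.38 and 3.20 against 2.46 and 1.80. Probe sets of a gene share the same RNA and are not independent replicates.

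**Figure D2:**
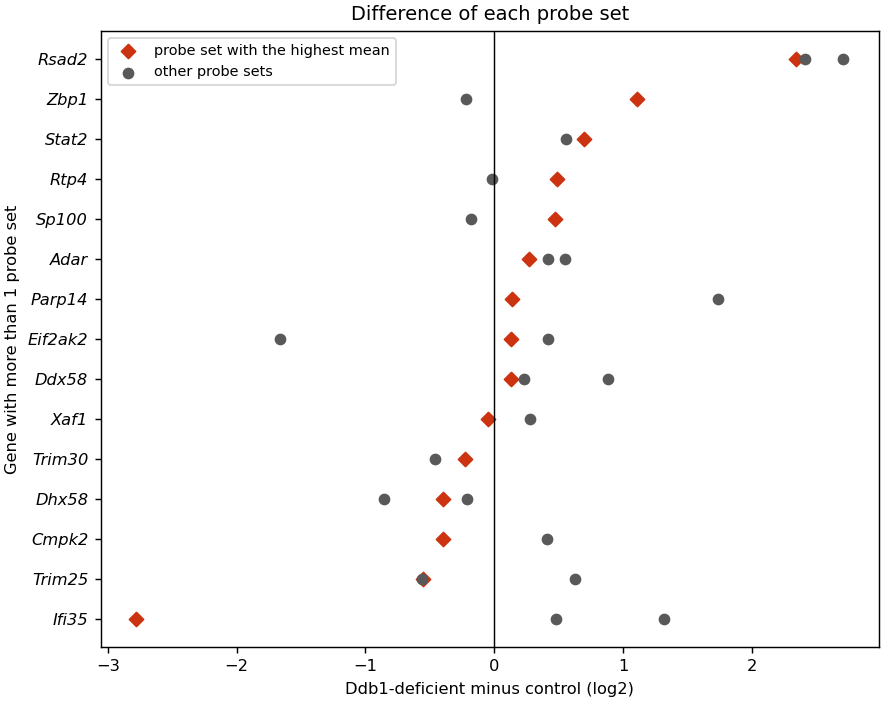
Difference between the *Ddb1*-deficient and control means (log2, x axis) of every probe set of the 15 members with more than 1 probe set. Red diamonds are the probe set with the highest mean, which stands for the gene, and grey points the others. The 3 *Rsad2* probe sets lie between 2.34 and 2.71, whereas those of *Ifi35* run from -2.78 to 1.32.

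The controls themselves differed in these genes. Control array 2 was lower than control array 1 for 26 of the 34 members, with a median difference of -0.59 between the 2 arrays, against 0.00 over all genes. The gap between the controls was over log2 1 for 11 members (32.4%), against 7.19% of all genes and 12.2% of the genes whose control mean was above the median probe set. In 10 of the 11 control array 1 was the higher, with *Oasl2* (array 2 minus array 1, -2.08), *Oas3* (-1.89), *Parp9* (-1.57), *Rtp4* (-1.56), *Cmpk2* (-1.53) and *Ifit2* (-1.44) among them, and *Ifi35* (3.07) was the exception. Genes with equal controls included *Ifit3* (0.05), *Xaf1* (-0.02), *Nmi* (-0.07) and *Parp14* (-0.08). Between the *Ddb1*-deficient arrays the gap was over log2 1 for 7 members, and array 2 was lower for 22 of 34 (median -0.28). Set against the array of the same number, and hence of the same sex, the median difference of the members was -0.10 for array 1 and 0.44 for array 2. In both of these pairs 12 members were positive and 5 negative, and the other 17 had opposite signs. *Rsad2* differed by 2.23 and 2.45, *Ifit3* by 1.97 and 1.22 and *Stat2* by 0.85 and 0.55, whereas *Oas3* differed by -1.40 and 0.98 and *Mx1* by -1.27 and 1.03. The median difference of the members was 0.51 when control array 1 was left out and -0.02 when control array 2 was. The macrophage markers ran the other way between the controls, with array 2 the higher for 18 of 19 (median 0.56), and the part of sex, cell content and handling in the gap between the controls was not tested.

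**Figure D3:**
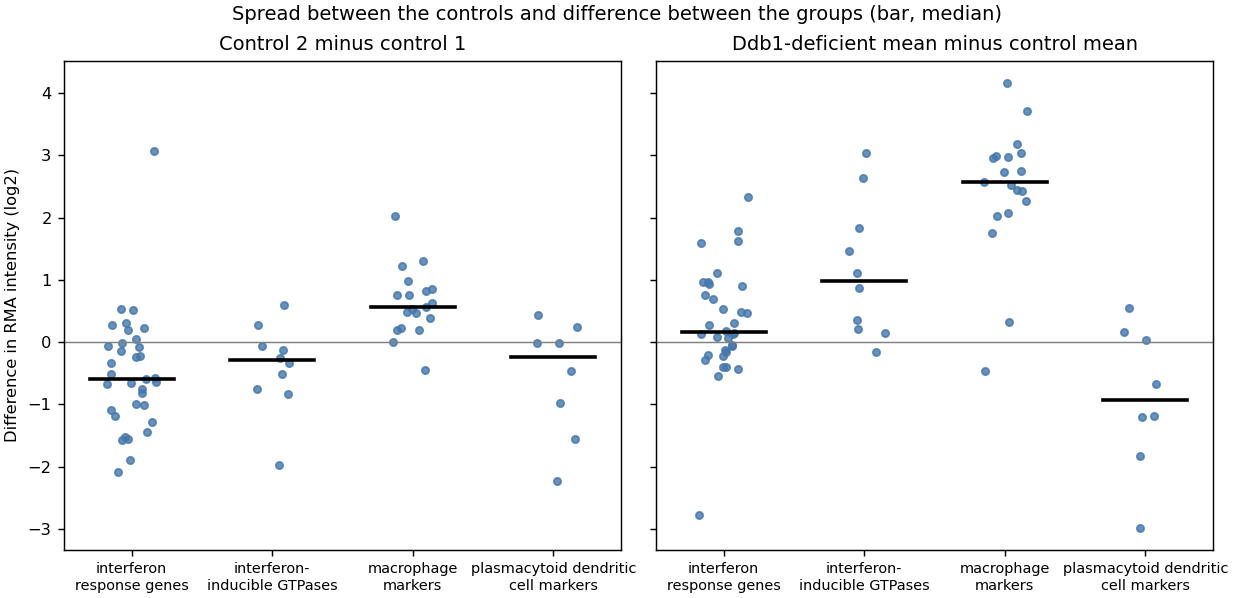
Left, control array 2 minus control array 1, and right, the *Ddb1*-deficient mean minus the control mean, both in log2 RMA intensity, for the interferon response genes, the interferon-inducible GTPases, the macrophage markers and the plasmacytoid dendritic cell markers. Points are genes and bars are medians. The interferon response genes have a median of -0.59 between the controls and of 0.16 between the groups, and the macrophage markers of 0.56 and 2.57.

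Several members are neighbours in the genome, and neighbours did not always share a difference. By the RefSeq annotation of GRCm38.p6, *Rsad2* (chromosome 12, 26442743 to 26456452) and *Cmpk2* (26469117 to 26479837) are 12664 bases apart with no other coding gene between them, and they differed by 2.34 and -0.40 between the groups. *Oasl2* and *Oasl1*, 10897 bases apart on chromosome 5, differed by 1.78 and 0.07, and *Oas2* and *Oas3*, 3211 bases apart, by 0.97 and -0.21. *Ifit2* (chromosome 19, 34550550 to 34576534) and *Ifit3* (34583119 to 34588982), 6584 bases apart, had like differences of 1.63 and 1.59. *Ifit1*, 51906 bases from *Ifit3* with 2 other coding genes between them, had a difference of 0.96. No test of the difference between neighbours was made.

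**Figure D4:**
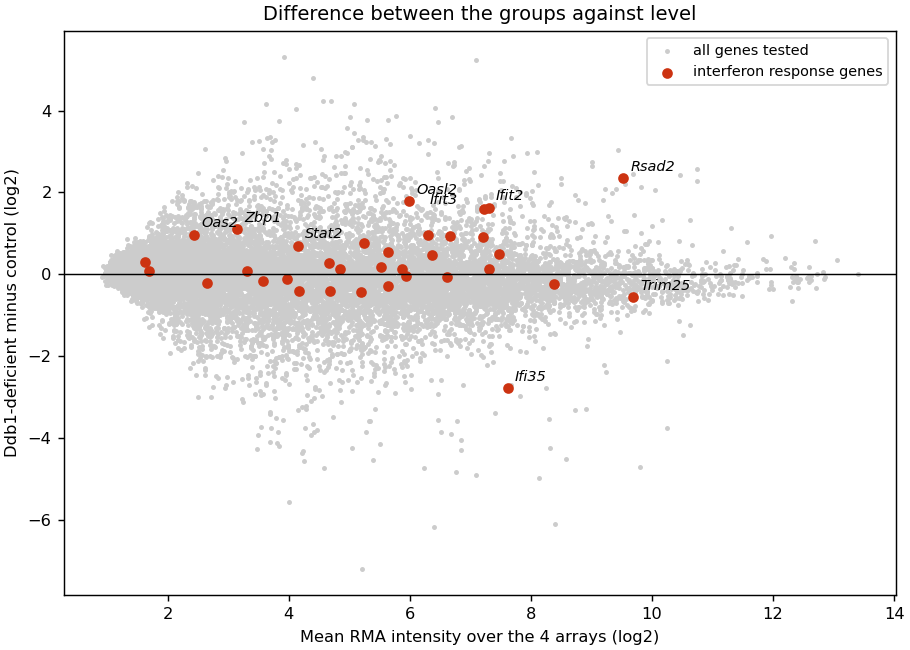
Difference between the *Ddb1*-deficient and control means (log2, y axis) against the mean level over the 4 arrays (log2 RMA intensity, x axis) for the 20656 genes tested (grey) and the 34 interferon response genes (red). *Rsad2* is among the brightest members and lies above the bulk of genes of its level, and *Ifi35* lies below it.

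The rest of the pathway was described with lists that share no gene with the members, and no gene of these lists passed the adjusted threshold. Of 16 type I interferon genes, 9 were measured and 2 had a group mean above the median probe set. None was under the unadjusted threshold in either direction (median 0.29). *Ifnab* was at 1.25 and 1.33 against 1.68 and 1.74 (difference 0.42, adjusted p = 0.507), and *Ifna11* was at 1.37 and 0.92 against 1.54 and 1.64. Both are dim, so that their differences lie in the range where the array has little signal. *Ifng* was at 1.34 and 1.48 against 1.30 and 1.03. Of the 6 interferon receptor genes, 1 was higher and none lower (median 0.03). This was *Il10rb*, a subunit of the type III interferon and interleukin 10 receptors, at 3.45 and 4.58 against 5.19 and 5.63 (difference 1.40, adjusted p = 0.435). Of the type I receptor, *Ifnar1* was at 5.32 and 5.13 against 5.46 and 4.89 and *Ifnar2* at 8.44 and 8.30 against 8.51 and 8.58. Both subunits were thus well above the median probe set in each group, with differences of -0.05 and 0.18. Of 5 JAK-STAT genes none was under the unadjusted threshold (median 0.28). *Jak2*, a kinase of cytokine receptors, differed by -0.41 (adjusted p = 0.614). Of 5 inhibitors of JAK-STAT signaling, 2 were lower and none higher (median -0.04). *Pias1*, an inhibitor of STAT proteins, was at 6.41 and 6.40 against 5.37 and 4.98 (difference -1.23, adjusted p = 0.226), and *Ptpn2*, a phosphatase of JAK1, was at 8.05 and 7.90 against 7.15 and 6.63 (difference -1.08, adjusted p = 0.303). *Socs1*, the inducible inhibitor of JAK kinases, was dim on all arrays (difference -0.04).

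Upstream of interferon, 16 genes of nucleic acid sensing had a median of -0.42, with 1 higher and 2 lower at the unadjusted threshold. *Irf8*, a factor of monocyte and dendritic cell development that also drives interferon genes, was at 6.43 and 6.02 against 3.84 and 3.92 (difference -2.34, adjusted p = 0.146). It was lower beside the neutrophil and monocyte progenitor markers given above, whose part was not tested. *Traf6* differed by -0.97 (adjusted p = 0.315), and *Tlr7*, an endosomal receptor of single-stranded RNA found on macrophages and dendritic cells, was at 4.48 and 4.04 against 4.91 and 5.71 (difference 1.05, adjusted p = 0.447). *Irf3*, the factor that starts interferon transcription, was at 4.29 and 3.41 against 5.43 and 4.57 (difference 1.15, adjusted p = 0.508). Of 8 genes that clear nucleic acid, none was under the unadjusted threshold (median 0.00).

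The interferon-inducible GTPases, which attack the vacuoles of intracellular pathogens and respond mainly to interferon gamma, were the nearest comparison for the members. Of 15 genes 10 were measured, 3 were higher and none lower at the unadjusted threshold, and 6 had both *Ddb1*-deficient arrays above both controls, with a median of 0.99. *Iigp1* was at 2.57 and 1.81 in controls and at 5.81 and 4.66 in *Ddb1*-deficient LSKs (difference 3.04, adjusted p = 0.217). *Gbp8* was at 4.03 and 3.20 against 6.57 and 5.94 (difference 2.64, adjusted p = 0.199), and *Gbp7* was at 7.76 and 7.24 against 8.76 and 8.46 (difference 1.11, adjusted p = 0.315). For these 3 genes the groups did not overlap. Control array 2 was lower than control array 1 for 8 of the 10, as for most of the interferon response genes. The difference between the GTPases and the members was not tested.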

How the data were processed

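LSK cells of 4 samples were measured on Affymetrix Mouse430_2 arrays. The authors normalized the arrays by RMA in GeneSpring after 2-cycle amplification and deposited the RMA intensity of 45101 probe sets on a linear scale, with log2 columns relative to the control mean. The deposited series matrix holds those log2 values and served as an alternative. It differs only by a constant per gene, so that it can only repeat the differences and p-values of the main fit. A second deposited table, with the authors' own p-values and fold changes, was not used. The aligner of the probe sets and the genome build of their alignments are not given in the sources used here.

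The log2 of the linear intensity was used, without the 64 control probe sets. Of 45037 probe sets 37463 carry 1 gene name, 1460 several and 6114 none, and 34158 were matched by gene ID to the RefSeq table of GRCm38.p6. Array medians were 2.03, 2.05, 2.07 and 2.09, and the 2 arrays of a group correlated over probe sets with r = 0.970 (controls) and 0.940 (*Ddb1*-deficient). The number of arrays limits the precision. Groups were compared over 20656 genes with lmFit and eBayes of limma 3.58.1 (R 4.3.3), without a block (2 residual and 1.96 prior degrees of freedom), with Benjamini-Hochberg adjustment and a threshold of 0.05. The fit was also run on simulated data. The outcome is not reported here, so that nothing is said about the size of change that this design can call.

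Members and lists were chosen with earlier results of these data known. Array values are given for the largest differences without overlap, for *Stat2*, *Irf9*, *Irf7* and *Irf1*, and for up to 3 overlapping members with arrays over log2 1 apart. Of the other lists up to 4 genes with the smallest p are named, or 2 where none was under 0.05, although some genes that this rule would name are not reported here. Array values of further members, of *Socs1*, *Ifng*, the type I receptor and single markers, were chosen after they were seen. The alternatives were the replicate block, the methods' t-test, trend and robust eBayes, an adjusted threshold of 0.1, the mean over probe sets, no _x_at or _s_at probe sets, no dim genes, array centring, quantile normalization, the series matrix and each array left out. An alternative with only those member probe sets that align to the gene's chromosome was chosen after seeing the data.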

Additional observations from a re-analysis of the deposited data

How the results depend on the processing

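No member passed the adjusted threshold under any of 15 alternatives. Over all genes 2 passed by the methods' t-test and 0 under the others, with 0 to 0 when an array was left out. Members higher at the unadjusted threshold numbered 4, between 3 and 5 under other settings and between 3 and 7 with an array left out. Members lower numbered 0, with 1 without _x_at or _s_at probe sets, 1 with the probe sets aligned to the gene's chromosome, both *Trim25*, and 0 to 1 with an array left out. Members with *Ddb1*-deficient arrays above both controls numbered 10, between 9 and 11 under other settings, and those below numbered 3, between 3 and 4 under other settings. With an array left out only 3 arrays have to separate, so that these counts cannot be smaller and are not the same measure, and they ran from 11 to 21 and from 4 to 14. Their median of 0.16 ran from 0.12 to 0.25 under other settings and from -0.02 to 0.51 with an array left out. Of 17 named members 13 kept their direction throughout. Most of the 13 were named because their groups do not overlap, and for such genes leaving out an array cannot turn the direction. Alternatives that change only the test return the same difference. The count is therefore no measure of stability. *Irf7*, whose groups overlap, came to -0.00 without *Ddb1*-deficient array 2. *Trim25* is among the 13, although its probe sets pointed both ways, so that no direction can be given for the gene. *Ifi35* turned to 1.32 without _x_at or _s_at probe sets, *Parp9* to 0.04 after quantile normalization, to 0.73 without control array 1 and to 0.28 without *Ddb1*-deficient array 2, *Oas3* to 0.73 without control array 1 and to 0.03 without *Ddb1*-deficient array 1, and *Irf1* to -0.12 without *Ddb1*-deficient array 2. With an array left out *Parp9* ran from -0.84 to 0.73, *Oas3* from -1.15 to 0.73 and *Irf1* from -0.12 to 0.48. The cause was not tested. Same-numbered arrays did not deviate together (r = -0.02 over 11880 genes above the median, -0.54 over the 34 members and -0.23 over the members without *Ifi35*). They are known to share a number and sex, and these values cannot show whether they share anything else. With the replicate number as a block, 0 genes passed and 5 members were higher at the unadjusted threshold, the 4 and *Oasl2*. A signal near the median probe set limits *Oas2*, *Mx2*, *Oasl1* and the interferon genes.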

Other observations

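Both members outside the comparison lie on probe sets that carry a second locus, so that their signal cannot be assigned to 1 gene. The probe set of *Isg15*, the ubiquitin-like modifier, was at 6.40 and 6.13 in controls and at 7.08 and 7.70 in *Ddb1*-deficient LSKs, with both *Ddb1*-deficient arrays the higher (difference 1.12). The probe set of *Usp18*, which removes that modifier and dampens the receptor, was at 4.89 and 3.75 against 3.14 and 3.49, with both the lower (means 4.32 and 3.31). These probe sets entered no fit.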
